A study of Sus scrofa with 9 samples.

Results

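The 8 genes described here encode proteins that fibroblasts and related stromal cells secrete into the extracellular matrix and that are not collagens: fibronectin (FN1), periostin (POSTN), SPARC, fibrillin-1 (FBN1), microfibril-associated protein 5 (MFAP5), decorin (DCN), lumican (LUM) and dermatopontin (DPT). They were chosen by name, with earlier results of these data known. Every probe set whose only gene symbol was one of these names was taken. This gave 8 probe sets, 1 for each gene, among 27558 probe sets and 12361 named genes on the array. The Entrez gene ID of each of the 8 matched the pig gene of the same symbol in RefSeq. Expression was measured with whole-transcript arrays in the longissimus dorsi, the long back muscle, of 9 male finishing pigs that weighed about 95 kg at the start. Of these pigs, 3 received a lysine-deficient diet, 3 a lysine-excess diet and 3 a lysine-adequate diet for 5 weeks, with 1 array for each pig. Lysine is an essential amino acid that often limits growth first in cereal-based pig feed. The breed, the age and the lysine content of the feeds are not given in the labels used here.

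Skeletal muscle fibres lie in a connective tissue scaffold, the endomysium, perimysium and epimysium, which is made mainly by fibroblasts. Cells assemble fibronectin into fibrils that guide the deposition of collagen. Fibrillin-1 polymerises into microfibrils, to which MFAP5 binds, and the small leucine-rich proteoglycans decorin and lumican coat collagen fibrils and control their width. Dermatopontin binds decorin and promotes the assembly of collagen fibrils, while periostin and SPARC are matricellular proteins, which modulate contacts between cells and matrix more than they bear load.

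The values were processed and deposited by the authors, and their range fits a log2 scale, which is assumed throughout; all differences are between such values. The array medians lay between 5.01 and 5.21, and the 8 arrays other than that of excess pig 11 correlated with each other at 0.977 to 0.992 over all probe sets. The array of excess pig 11 stood apart, with correlations of 0.904 to 0.956 and an SD over probe sets of 1.82, against 1.93 to 1.99 on the others. Bright probe sets in particular were low on it: among the 4141 probe sets at least as bright as the dimmest of the 8 genes, this pig had the lowest of the 9 values on 67.4%. The excess minus adequate difference of each of the 8 genes is given with and without it, and medians of gene lists are given with their range when single pigs were left out, a setting added after the data were seen. Of the 15 muscle fibre markers looked for, 7 were measured, and all 7 lay above the median of all probe sets, 5.07. Among the fibroblast markers 10 of 11 were measured and 0 were dimmer than that. Replicates were separate pigs, and 3 arrays per diet limit the precision.

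For all 8 genes the adequate pigs had the highest mean of the 3 diets, a pattern that held for 31.3% of all probe sets and for 45.7% of those at least as bright. No gene passed limma's threshold, an adjusted p of 0.05 after Benjamini-Hochberg adjustment over all probe sets, in any comparison. The deficient and excess groups were both set against the same 3 adequate pigs, so the 2 comparisons are not independent. In whole muscle, fewer fibroblasts and less RNA per fibroblast cannot be told apart.

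Fibronectin, the adhesive glycoprotein on which collagen is laid down, differed most clearly in the deficient pigs. FN1 (probe set 15241173) read 9.24, 8.58 and 9.60 in the deficient pigs, 9.80, 9.66 and 9.11 in the excess pigs and 10.21, 9.79 and 9.80 in the adequate pigs. Every deficient pig lay below every adequate pig, whereas the excess pigs overlapped both other groups (excess pig 9 read 9.80124, above adequate pig 6 at 9.786). The deficient mean was 9.14 ± 0.52, the excess mean 9.52 ± 0.37 and the adequate mean 9.93 ± 0.24 (SD, n = 3 each). Deficient minus adequate was -0.79 ± 0.29 (SE), which is 1.73-fold lower, with an unadjusted p of 0.0258 and an adjusted p of 1.00 in limma. Without deficient pig 2, the lowest of all 9 pigs, this difference was -0.51. Excess minus adequate was -0.41 ± 0.29, and it was -0.20 without excess pig 11 and -0.27 without adequate pig 5.

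Periostin, a matricellular protein of connective tissue under repair or load, had the widest spread. POSTN (probe set 15204948) read 7.25, 7.81 and 8.16 in the deficient pigs, 7.42, 8.22 and 7.65 in the excess pigs and 9.67, 8.33 and 7.86 in the adequate pigs. Adequate pig 5 lay 1.58 above the mean of the other 2 adequate pigs, and the values of all 3 diets overlapped. The highest pig exceeded the lowest 5.37-fold, and the SD within diets, 0.65, was larger than that of 95.9% of all probe sets. Deficient minus adequate was -0.88 ± 0.47 and excess minus adequate -0.86 ± 0.47, with unadjusted p-values of 0.100 and 0.108 in limma. Without adequate pig 5 these differences were -0.35 and -0.33, and without excess pig 11 the second was -0.80.

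SPARC, which binds collagen and calcium and is secreted during matrix assembly, varied little. Its values (probe set 15243583) were 10.77, 10.56 and 10.74 in the deficient pigs, 10.99, 10.71 and 10.48 in the excess pigs and 11.14, 10.87 and 10.87 in the adequate pigs. The deficient pigs lay below the adequate pigs without overlap, and excess pig 9 lay among the adequate pigs. The deficient difference was -0.27 ± 0.14, or 1.21-fold lower (unadjusted p of 0.0936 in limma). The excess difference was -0.24 ± 0.14, which became -0.12 when excess pig 11 was left out, -0.15 when adequate pig 5 was and -0.37 when excess pig 9 was.

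**Figure D1:**
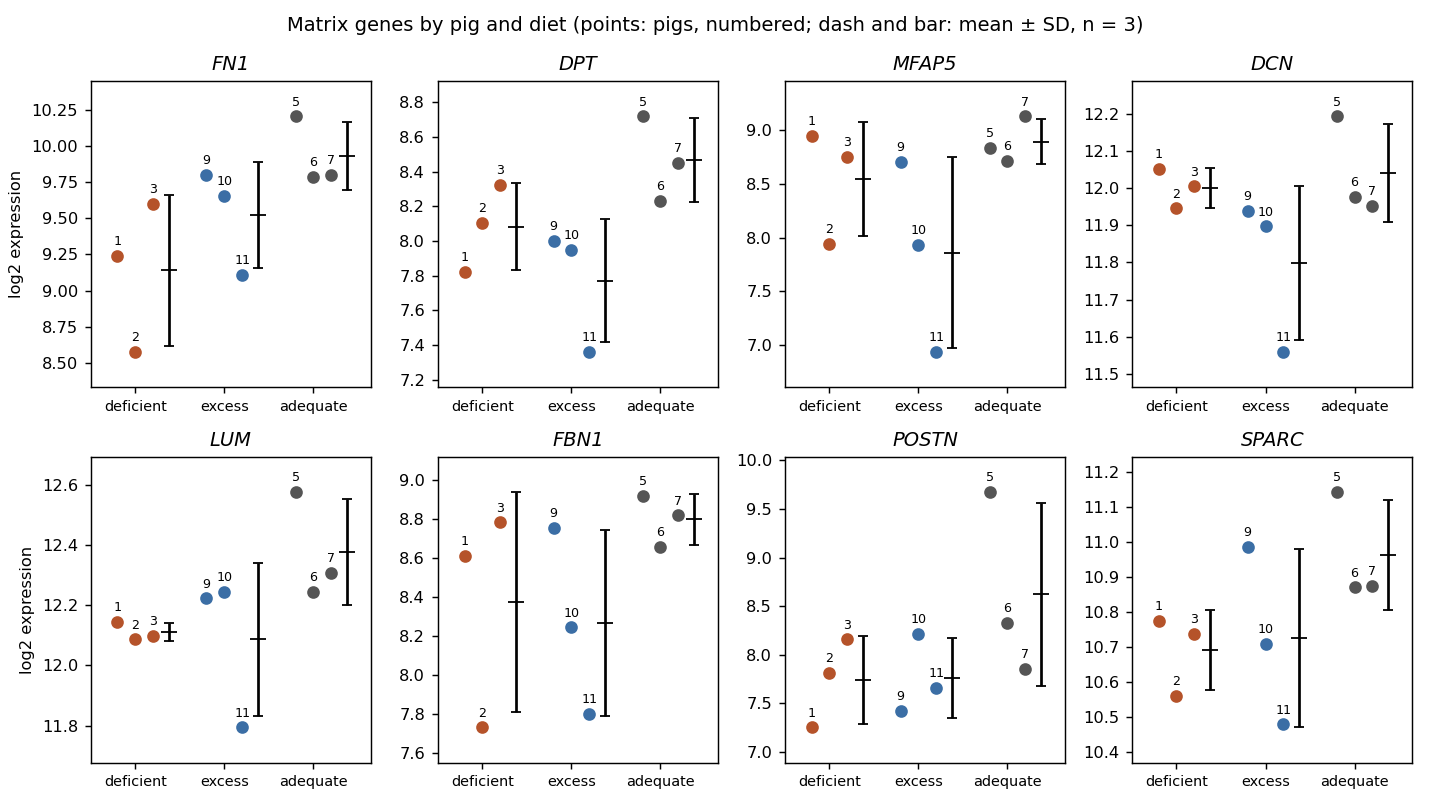
Log2 expression of the 8 matrix genes (vertical axis, a separate range for each gene) in deficient, excess and adequate pigs. Each numbered point is a pig, and the dash and bar beside the points give the mean and SD of 3 pigs. Pig 5 is the highest of the 9 pigs for every gene but MFAP5, and pig 11 the lowest for DPT, MFAP5, DCN, LUM and SPARC.

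The 2 microfibril genes shared a pattern over pigs that was unlike that of POSTN. FBN1, the fibrillin that forms the microfibril backbone (probe set 15186232), read 8.61, 7.73 and 8.78 in the deficient pigs, 8.75, 8.24 and 7.80 in the excess pigs and 8.92, 8.66 and 8.82 in the adequate pigs. The adequate values were close together, with an SD of 0.13. Deficient pig 2 lay well below the other deficient pigs, and the excess values were spread out evenly. The SDs of these groups were 0.56 and 0.48. Deficient minus adequate was -0.42 ± 0.32 and excess minus adequate -0.53 ± 0.32. The first was -0.10 without deficient pig 2, and the second was -0.30 without excess pig 11.

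MFAP5, which attaches to fibrillin (probe set 15289536), read 8.94, 7.94 and 8.75 in the deficient pigs, 8.71, 7.93 and 6.94 in the excess pigs and 8.84, 8.72 and 9.13 in the adequate pigs. Here the excess pigs lay below the adequate pigs without overlap, although excess pig 9 (8.71) was next to adequate pig 6 (8.72). Excess minus adequate was -1.04 ± 0.44, or 2.05-fold lower (unadjusted p of 0.0491 and adjusted p of 0.757 in limma), and -0.57 without excess pig 11. Deficient minus adequate was -0.35 ± 0.44, and this difference was -0.04 without deficient pig 2, -0.55 without deficient pig 1 and -0.23 without adequate pig 7. Over the 9 pigs MFAP5 and FBN1 correlated at a Pearson r of 0.88, and MFAP5 and POSTN at 0.17, the highest but one and the lowest of the 28 pairs of these genes. The likeness was not particular to these 2 genes, since the median over the 28 pairs was 0.72. FBN1 correlated with SPARC at 0.87 and with FN1 at 0.85, and MFAP5 with DCN at 0.83 but with FN1 at 0.57.

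Decorin and lumican are neighbours in the pig genome as well as relatives. In the gene order of the RefSeq annotation of Sscrofa11.1, DCN is followed by LUM and then by KERA and EPYC, which encode other small leucine-rich proteoglycans. DCN (probe set 15290632) read 12.05, 11.95 and 12.00 in the deficient pigs, 11.94, 11.90 and 11.56 in the excess pigs and 12.19, 11.98 and 11.95 in the adequate pigs. Its deficient and adequate values overlapped almost completely, with a difference of -0.04 ± 0.12 and a 95% interval of -0.31 to 0.23, and the sign turned to 0.04 without adequate pig 5. The excess pigs lay below both other groups without overlap, but narrowly. Excess pig 9 read 11.9385, deficient pig 2 11.9454 and adequate pig 7 11.9531. Excess minus adequate was -0.24 ± 0.12 (unadjusted p of 0.0721 in limma), and -0.12 without excess pig 11.

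LUM (probe set 15290641) read 12.14, 12.09 and 12.10 in the deficient pigs, 12.22, 12.24 and 11.79 in the excess pigs and 12.58, 12.24 and 12.31 in the adequate pigs. It was the only one of the 8 genes for which each adequate pig lay above each of the 6 others, by a hair, since excess pig 10 read 12.2431 and adequate pig 6 read 12.2435. This separation held for 0.758% of all probe sets and for 1.69% of those at least as bright. Deficient minus adequate was -0.27 ± 0.14 and excess minus adequate -0.29 ± 0.14. The unadjusted p-values were 0.0923 and 0.0715 in limma. The deficient difference was -0.17 without adequate pig 5, and the excess difference -0.14 without excess pig 11 and -0.19 without adequate pig 5.

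Dermatopontin, the small partner of decorin, had the lowest p-value among the 8 genes in the F test over the 3 diets (limma F test, unadjusted p of 0.0358 and adjusted p of 0.933). It was the 1 gene of the 8 with an unadjusted p below 0.05 there, which 2.54% of all probe sets had. DPT (probe set 15279509) read 7.82, 8.11 and 8.32 in the deficient pigs, 8.003, 7.95 and 7.36 in the excess pigs and 8.72, 8.23 and 8.45 in the adequate pigs. All excess pigs lay below all adequate pigs, and deficient pig 3 lay among the adequate pigs. Excess minus adequate was -0.70 ± 0.21, or 1.62-fold lower (unadjusted p of 0.0124 and adjusted p of 0.757 in limma), with a 95% interval of -1.19 to -0.20. The difference was -0.49 without excess pig 11 and -0.44 when the model also held each array's SD. The deficient difference was -0.38 ± 0.21, and -0.25 without deficient pig 1.

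Set side by side, the means of the 8 genes lay below the adequate mean in both diets, by different amounts. The genes were chosen with earlier results known and varied together over the pigs (median Pearson r of 0.72 over 28 pairs). The counts below, set beside shares of all probe sets, are therefore descriptions and not tests. In deficient against adequate pigs, 8 of 8 differences were negative, where 47.0% of all probe sets and 53.2% of those at least as bright were negative. Their median was -0.37, the median of all probe sets 0.01 and that of the bright ones -0.01. FN1, LUM and SPARC were lower without overlap, 3 of 8 genes against 3.07% of all probe sets and 5.92% of the bright ones. An unadjusted p below 0.05 was reached by 1 gene, FN1, and by 1.85% of all probe sets (1.01% as lower values, and 2.25% of the bright ones). An adjusted p below 0.05 by 0 of the 8 genes and 0.0% of all probe sets.

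In excess against adequate pigs, 8 of 8 differences were negative as well, where 49.8% of all probe sets but 82.7% of the bright ones were negative. The median of the 8 genes was -0.47 and that of the bright probe sets -0.13. Without excess pig 11 these medians were -0.25 and -0.01, so a part of the first moved with that array, and all 8 differences stayed negative. With each array's SD in the model they shrank further, to a median of -0.16 and a range of -0.72 to -0.07 over the 8 genes. All 8 were still negative there. DPT, MFAP5, DCN and LUM were lower without overlap, 4 of 8 genes against 3.84% of all probe sets and 7.85% of the bright ones. The gaps of MFAP5, DCN and LUM were narrow, as given above. At an unadjusted p below 0.05 there were 2 genes, DPT and MFAP5, against 3.56% of all probe sets (2.21% as lower values, and 4.18% of the bright ones). At an adjusted p below 0.05 there were 0 genes and 0.0% of all probe sets in limma.

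**Figure D2:**
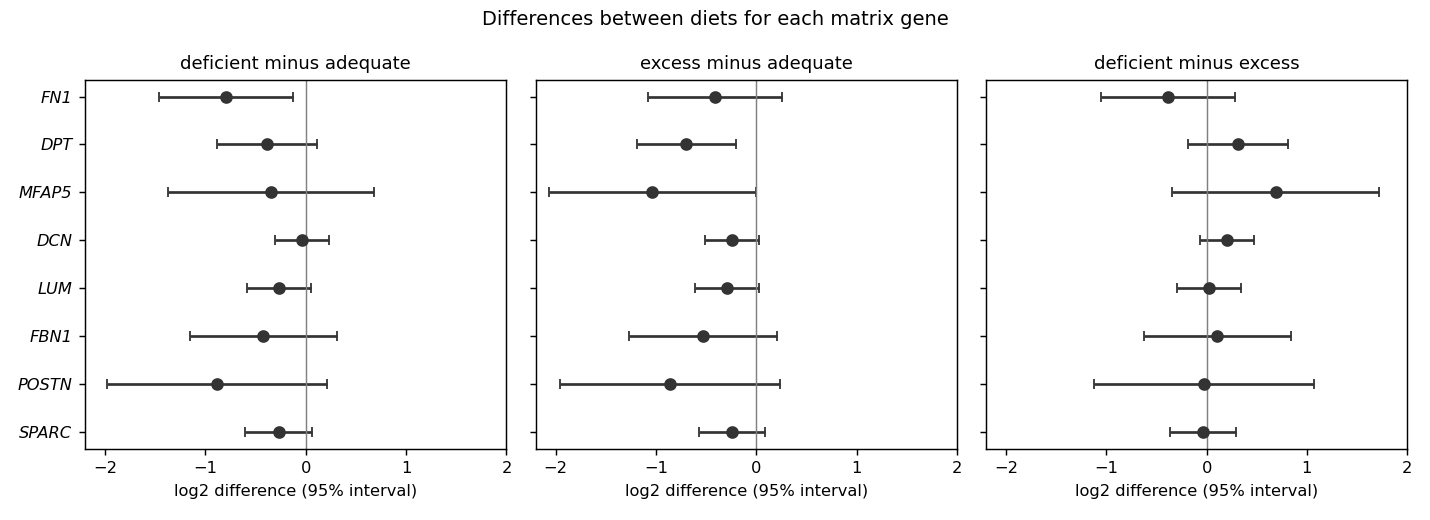
Differences of the 8 matrix genes between diets (horizontal axis, log2 units; points, limma estimates; bars, 95% intervals, not adjusted for the number of genes). Intervals that leave out 0 are those of FN1 in deficient minus adequate and of DPT and MFAP5 in excess minus adequate.

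Between deficient and excess pigs the 8 genes went both ways. Of the 8, 3 were lower in the deficient pigs (FN1, POSTN and SPARC), where 50.0% of all probe sets and 25.1% of the bright ones were, and 5 were higher, with a median of 0.07, against 0.12 for the bright probe sets. DCN was higher in every deficient pig than in any excess pig, 1 gene against 4.28% of all probe sets and 11.9% of the bright ones, by 0.20 ± 0.12. This difference was 0.083 without excess pig 11 and 0.097 with each array's SD in the model. FN1 differed by -0.38 ± 0.29, and by -0.61 to -0.10 when single pigs were left out (-0.59 without excess pig 11, -0.10 without deficient pig 2). MFAP5 differed by 0.69 ± 0.44, and by 0.23 without excess pig 11 and 1.11 without excess pig 9. The 95% interval of LUM ran from -0.30 to 0.35, that of SPARC from -0.36 to 0.30 and that of POSTN from -1.12 to 1.07. With 3 pigs per diet the data thus leave room for differences in either direction within these intervals. No gene had an unadjusted p below 0.05, which 4.08% of all probe sets had, and 0 genes and 0.0% of all probe sets had an adjusted p below 0.05 in limma (adjusted p of 0.872 to 0.992 for the 8 genes). Without excess pig 11 the median was -0.10 and 5 genes were lower. It was also below 0 without deficient pig 3 (-0.01, 4 genes lower) and with each array's SD in the model (-0.12, 5 lower). With quantile normalization applied again it was 0.0009, and in the remaining settings it stayed above 0. The direction of the group thus depended on the pigs and the setting used.

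**Figure D3:**
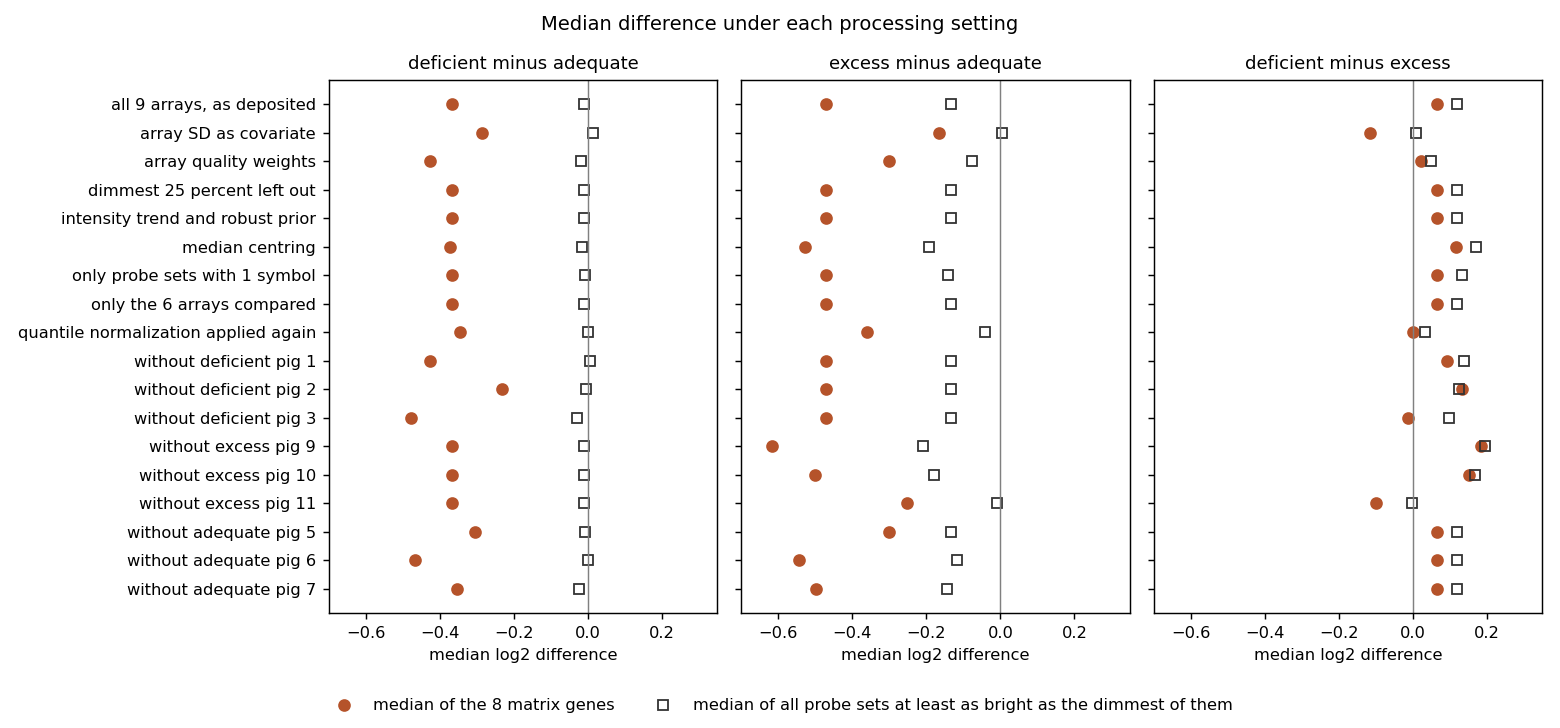
Median log2 difference (horizontal axis) of the 8 matrix genes (filled circles) and of all probe sets at least as bright as the dimmest of them (open squares) for each comparison, with all arrays as deposited in the top line and 1 processing choice changed in each line below. In both comparisons with adequate pigs the circles lie below 0 and below the squares on every line, and in deficient minus excess they lie on both sides of 0.

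Single pigs often held the extreme values. Adequate pig 5 had the highest of the 9 values for 7 of the 8 genes, all but MFAP5, where 9.12% of all probe sets and 11.2% of the bright ones were highest in that pig. Excess pig 11 had the lowest value for 5 of the 8 genes, where 31.6% of all probe sets and 67.4% of the bright ones were lowest there. Deficient pig 2 was lowest for FN1 and FBN1, and deficient pig 1 for POSTN. Without adequate pig 5 the median difference over the 8 genes was -0.31 in deficient and -0.30 in excess pigs, and 7 and 8 of the 8 genes were below the remaining adequate pigs.

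The genes also differed in how much they varied among pigs of the same diet. MFAP5 had a pooled SD within diets of 0.61, FBN1 of 0.43 and FN1 of 0.39, each above that of 86.9% or more of all probe sets. DCN, LUM and SPARC had SDs of 0.15, 0.18 and 0.18, near the median of all probe sets, 0.17. The lowest pig and the highest pig differed 1.55-fold for DCN and 4.58-fold for MFAP5. LUM was especially even in the deficient pigs, with an SD of 0.03 there, 0.25 in the excess pigs and 0.18 in the adequate pigs.

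Each gene was also set against the mean of the 7 others over the 9 pigs, each centred on its own mean. These correlations are descriptions over 9 pigs of 3 diets, and no p-value is given for them because the genes were chosen with results known. LUM and SPARC followed the others most closely, both with a Pearson r of 0.91 (Spearman's rho of 0.85 and 0.83). POSTN followed them least, with an r of 0.50 and a rho of 0.50. Adequate pig 5 and excess pig 11 lay farthest from the middle, and leaving both out lowered r for 6 of the 8 genes. It became 0.58 for LUM, 0.71 for SPARC, 0.49 for DPT (0.87 with all pigs), 0.56 for MFAP5 (0.69 with all pigs), 0.11 for DCN (0.82 with all pigs) and 0.01 for POSTN. For FBN1 it was 0.84 with and without them, and for FN1 it was 0.80 without them and 0.78 with all pigs.

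Among 6826 named genes with a mean at or above the median of all probe sets, the 10 whose values over the 9 pigs were most like the mean of the 8 genes included 3 stromal genes. These were COL3A1, a chain of type III collagen, with a Pearson r of 0.95, COL6A3, a chain of type VI collagen, with 0.95, and THY1, a surface glycoprotein of fibroblasts, with 0.94. Without adequate pig 5 and excess pig 11 these 3 had an r of 0.85, 0.89 and 0.92. The list was led by MAGOH, a subunit of the exon junction complex, with an r of 0.98 and a rho of 0.92, and by KIRREL, a cell adhesion protein of the immunoglobulin family, with 0.97 and 0.90. PML, PCBD1, EIF4E2, CEBPD and GFRA1 had an r of 0.94 to 0.96. A high r was common, since the median over all 6826 genes was 0.50 and 72 genes had an r of at least 0.9. On deviations of each pig from the mean of its diet, COL3A1, COL6A3 and THY1 ranked 166, 111 and 159 among the 6826 genes. On the same measure MAGOH, EIF4E2 and CEBPD ranked 5, 2 and 3, and KIRREL, PML, PCBD1 and GFRA1 ranked 24, 86, 188 and 236. The values of PML spanned only 5.08 to 5.31, and those of COL3A1 8.40 to 9.82.

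**Figure D4:**
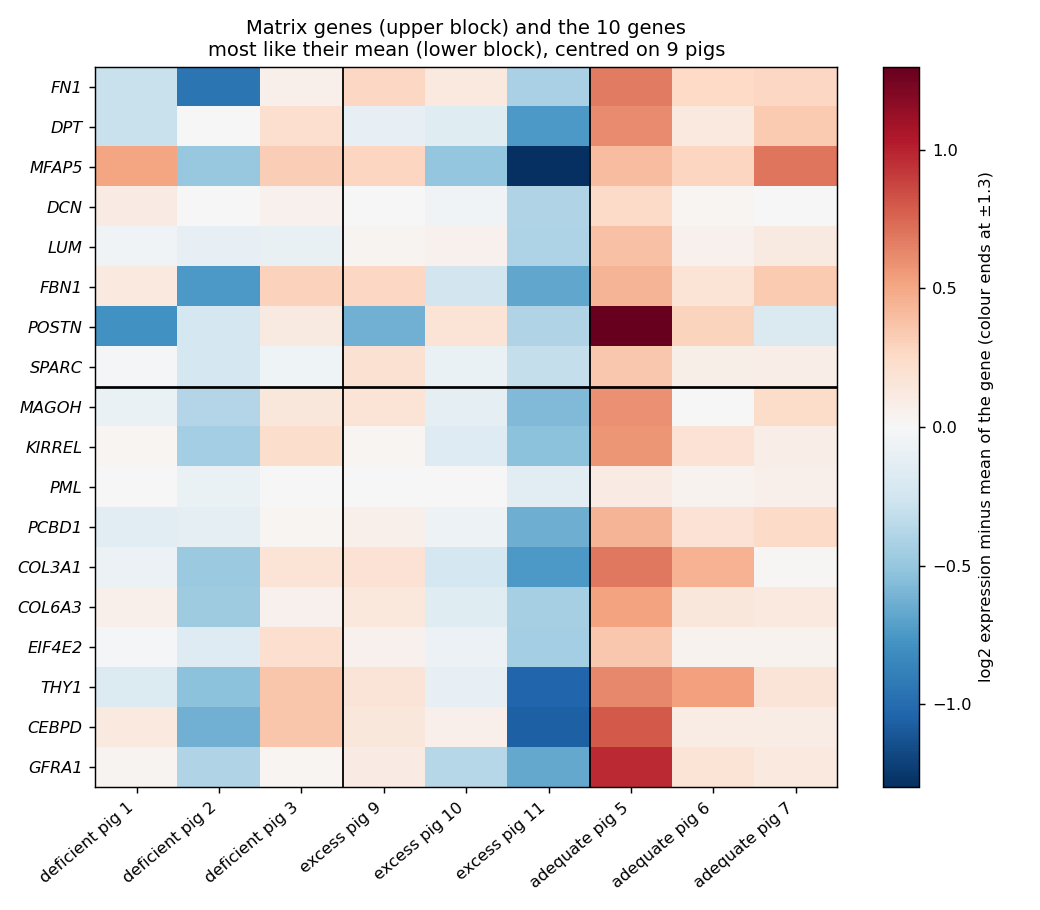
Log2 expression of each gene minus its mean over the 9 pigs, for the 8 matrix genes (upper block) and the 10 genes most like their mean (lower block), with pigs in columns by diet (deficient, excess, adequate). The column of adequate pig 5 is high for every gene shown and that of excess pig 11 low for every gene shown. POSTN in adequate pig 5 and MFAP5 in excess pig 11 lie beyond the ends of the colour scale.

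Other genes of the matrix were read from 9 lists. For the counts in these and the cell type lists, 47.0% of all probe sets were lower in deficient and 49.8% in excess pigs. Among probe sets at least as bright as the dimmest of the 8 genes, 53.2% and 82.7% were lower, with medians of -0.01 and -0.13. Most bright probe sets were thus lower in the excess pigs whatever the list, and not every listed gene is that bright. Against the same adequate pigs, interstitial collagens lay lower in 9 of 9 cases in the deficient pigs (median -0.38) and in 9 of 9 in the excess pigs (median -0.25), and 0 passed the adjusted threshold in limma in either. Leaving out adequate pig 5 gave 7 of 9 (median -0.24) and 8 of 9 (median -0.11), and without deficient pig 2 the first median was -0.20. For COL1A1, the alpha 1 chain of type I collagen, the deficient pigs lay without overlap under the adequate pigs (-0.45 ± 0.12, unadjusted p of 0.00578 and adjusted p of 1.00 in limma).

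The small leucine-rich proteoglycans other than DCN and LUM were lower in 6 of 7 cases in both diets, with medians of -0.46 and -0.54 in deficient and excess pigs. These medians rested on few pigs. Without adequate pig 5 they were -0.05 and -0.27, with 5 of 7 genes lower in both, the first was -0.19 without deficient pig 2, and the second was -0.25 without excess pig 11. Among them FMOD, fibromodulin, read 8.61 in adequate pig 5 and differed by -0.84 ± 0.39 in the deficient pigs, without overlap, and by -0.68 ± 0.39 in the excess pigs. These were, without adequate pig 5, -0.40 and -0.24, and without excess pig 11 the second was -0.43.

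Microfibril and elastic fibre genes were lower in 7 of 9 cases in the deficient pigs (median -0.18, and -0.22 to -0.10 when single pigs were left out) and in 9 of 9 in the excess pigs (median -0.27, and -0.40 to -0.16). MFAP3, a microfibril-associated protein, differed by -0.33 ± 0.07 in the excess pigs without overlap and had an adjusted p of 0.757 in limma. Matricellular genes other than POSTN and SPARC were lower in 6 of 10 cases in the deficient pigs (median -0.06) and in 9 of 10 in the excess pigs (median -0.16). The first turned to 0.05 without adequate pig 5, with 3 of 10 lower, and the second was -0.04. Receptors for fibronectin and matrix, mostly integrins and syndecans, were lower in 10 of 13 cases in the deficient pigs (median -0.06) and in 11 of 13 in the excess pigs (median -0.16). The first turned to 0.03 without adequate pig 5, with 3 of 13 lower, and the second was -0.07 without excess pig 11. Of these 3 lists 0 genes passed the adjusted threshold in limma. At an unadjusted p below 0.05 there was SMOC2, a calcium-binding matricellular protein, in the deficient pigs (-0.21 ± 0.08), and in the excess pigs MFAP3 and TNXB, which encodes tenascin-X (-0.50 ± 0.21). SMOC2 was 1 of 10 matricellular genes, against 1.85% of all probe sets in that comparison. MFAP3 was 1 of 9 microfibril genes and TNXB 1 of 10 matricellular genes, against 3.56% of all probe sets. The receptor list held 0 in both comparisons.

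Enzymes that process and crosslink the matrix lay lower in 10 of 14 cases in the deficient pigs (median -0.09, and -0.15 to -0.03 when single pigs were left out) and in 13 of 14 in the excess pigs (median -0.42, but -0.20 without excess pig 11 and -0.27 without adequate pig 5). ADAMTS2, which cleaves procollagen, differed by -0.73 ± 0.22 in the deficient pigs without overlap and by -0.48 ± 0.22 in the excess pigs. SERPINH1, the collagen chaperone, differed by -0.93 ± 0.40 in the excess pigs and by -0.49 without excess pig 11. LOX, which crosslinks collagen and elastin, differed by -0.63 ± 0.27 in the excess pigs and by -0.42 without excess pig 10. Proteases and their inhibitors were lower in 11 of 12 and 9 of 12 cases in deficient and excess pigs, with medians of -0.08 (-0.13 to -0.01 without single pigs) and -0.13 (-0.16 to -0.08). MMP2, a gelatinase made by stromal cells, differed by -0.51 ± 0.21 in the deficient pigs, without overlap, and by -0.63 ± 0.21 in the excess pigs.

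Basement membrane genes were lower in 7 of 7 cases in both diets, with medians of -0.12 and -0.25 in deficient and excess pigs. The first turned to 0.02 without adequate pig 5, with 3 of 7 lower, and the second was -0.08 without excess pig 11. The TGF-beta list, whose pathway induces many matrix genes, held 9 of 12 genes lower in the deficient pigs and 11 of 12 in the excess pigs, with medians of -0.05 (-0.09 to -0.02 without single pigs) and -0.12 (-0.22 to -0.09). No gene of these 4 lists passed the adjusted threshold in limma (0 genes in each comparison). The median of all probe sets was 0.01 and 0.00, and that of the bright ones -0.01 and -0.13. At an unadjusted p below 0.05 there were 2 of the 45 measured genes of these 4 lists in the deficient pigs, ADAMTS2 and MMP2, against 1.85% of all probe sets. In the excess pigs there were 4 of 45, LOX, MMP2, SERPINH1 and TGFBR3, against 3.56% of all probe sets.

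**Figure D5:**
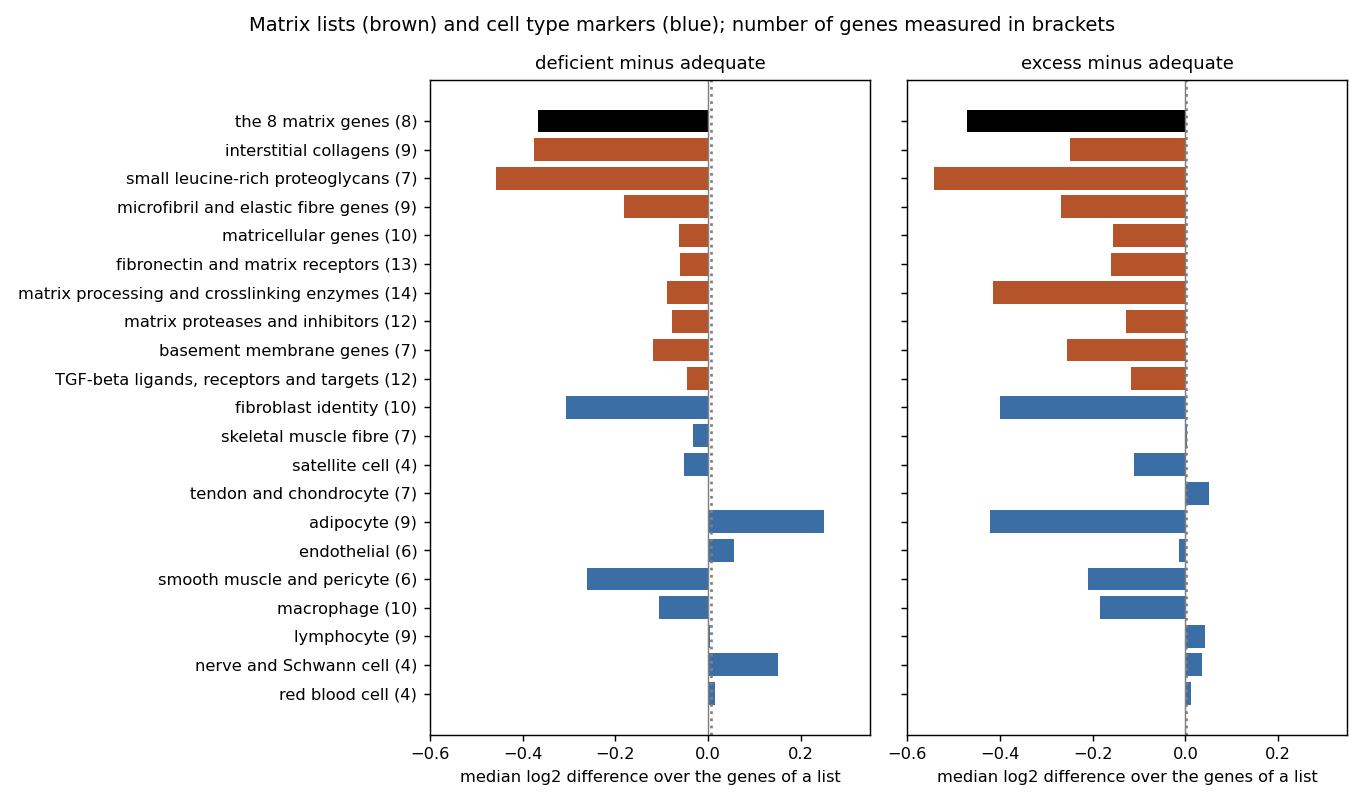
Median log2 difference over the measured genes of each list (horizontal axis) in deficient minus adequate and excess minus adequate pigs, for the 8 matrix genes (black), the matrix lists (brown) and the markers of cell types (blue), with the number of genes in brackets and the median of all probe sets as a dotted line. With all pigs the matrix lists lie below 0 in both panels (without adequate pig 5 the matricellular, receptor and basement membrane lists turn above 0 in the deficient pigs), and the adipocyte markers lie above 0 in the deficient and below 0 in the excess pigs.

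Markers of fibroblasts lay in the same direction as the 8 genes. This list holds COL1A1, COL1A2 and COL3A1, which are also on the interstitial collagen list, so the lists are not separate readings. Bright genes such as collagens weigh most in a sum on the linear scale. The summed level of the 10 measured fibroblast markers, on the linear scale, ran from 3369 to 4445 in the deficient pigs, from 3608 to 4609 in the excess pigs and from 4552 to 5788 in the adequate pigs, with the top value in adequate pig 5. Their medians were -0.31 (8 of 10 lower) in deficient and -0.40 (9 of 10 lower) in excess pigs. With adequate pig 5 left out they were -0.16 (6 of 10) and -0.25 (9 of 10), and without excess pig 11 the second was -0.26. Smooth muscle and pericyte markers were lower in 5 of 6 cases in both diets, with medians of -0.26 and -0.21, and of -0.10 and -0.07 without adequate pig 5. Their summed levels were 2592 to 2897, 2563 to 3247 and 2931 to 3669 in deficient, excess and adequate pigs. The part of these cell types in the result was not tested.

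Tendon and cartilage markers lay otherwise. Of the list 7 of 10 were measured and 5 were dimmer than the median probe set, TNMD and COMP among them. In the deficient pigs 4 of 7 were lower (median 0.00) and in the excess pigs 1 of 7 (median 0.05). Their sum ran from 243 to 298 in deficient, from 260 to 327 in excess and from 275 to 550 in adequate pigs, and the list includes FMOD, whose value in adequate pig 5 is given above.

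Adipocyte markers lay in opposite directions in the 2 diets, with 9 of 9 higher in the deficient pigs (median 0.25, and 0.16 to 0.43 when single pigs were left out) and 9 of 9 lower in the excess pigs (median -0.42, and -0.60 to -0.24). Macrophage markers were lower in 7 of 10 and 8 of 10 cases in deficient and excess pigs, with medians of -0.11 (-0.21 to 0.00 without single pigs) and -0.18 (-0.39 to -0.10, and -0.10 without excess pig 11). Endothelial markers had medians of 0.06 and -0.01 and muscle fibre markers of -0.03 and 0.00. Satellite cell, lymphocyte, nerve and red blood cell markers had medians between -0.05 and 0.15 in deficient and between -0.11 and 0.04 in excess pigs. The medians of these last 6 lists turned sign in 1 or both comparisons when single pigs were left out.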

How the data were processed

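The authors deposited processed values on a log scale, taken as log2 from their range of 3.10 to 14.30. TRIzol was used for RNA extraction and the amplified product was sense-strand cDNA, per the labels' protocols, and per the submitters' processing notes GCOS 1.2 and Partek were used in roles not given. How background was corrected, how arrays were normalized and which build was used is not given in the sources used here, so fold changes rest on an inferred base.

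No further normalization was applied. With 1 mean for each diet, all 27558 probe sets of the 9 arrays were modelled in limma 3.58.1 in R 4.3.3 (lmFit, eBayes), with two-sided tests and Benjamini-Hochberg adjustment over all probe sets at 0.05. SE comes from this model, and the SD is that of 3 pigs. The fit was tested on simulated data. A gene's value is its probe set with the highest mean. Symbols came from the platform annotation, updated through Entrez IDs. All 8 genes, up to 4 leading genes of each of 20 lists by the size of limma's statistic, and the 10 most similar genes could be named. Members and lists were chosen with earlier results of these data known.

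Other settings tried were centring on the median, a second quantile normalization, array quality weights, each array's SD as covariate, a robust prior that follows intensity, a fit to 6 arrays, leaving out each pig, leaving out the dimmest 25 percent of probe sets and testing only probe sets with 1 symbol.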

Additional observations from a re-analysis of the deposited data

How the results depend on the processing

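No paired analysis was made, since the labels used here give no pairing or block of pigs across the 3 diets. Averaging the probe sets of a gene changes nothing here, since each of the 8 genes has 1. No member passed an adjusted p of 0.05 in any of the 17 other settings (adjusted p from 0.599 to 1.00 in deficient against adequate, from 0.264 to 1.00 in excess against adequate and from 0.316 to 1.00 in deficient against excess, in limma). All 136 values of excess against adequate and 135 of 136 of deficient against adequate kept their sign, the exception being DCN (-0.084 to 0.036 without single pigs, 0.036 without adequate pig 5). In deficient against excess 120 of 136 did. There LUM turned to -0.10 with the SD covariate and -0.032 with array weights, FBN1 to -0.17, -0.26 and, with quantile normalization applied again, -0.011, POSTN to 0.076 with weights and 0.027 with median centring, and SPARC to 0.017 with median centring. Leaving out single pigs gave -0.12 to 0.10 for LUM, -0.12 to 0.43 for FBN1, -0.23 to 0.22 for POSTN and -0.16 to 0.10 for SPARC.

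Members with an unadjusted p below 0.05 in deficient against adequate numbered 2 with the SD covariate, 4 with weights and 3 with 6 arrays, against 1, and 0 to 2 without single pigs. The shares of all probe sets also changed, to 4.8%, 8.01% and 3.41% in these 3 settings, against 1.85%. In excess against adequate the members numbered 1, 0 and 1, against 2, and 1 to 5 without single pigs, 5 being without excess pig 9. Of all probe sets 4.01%, 0.987% and 2.15% had such a p, against 3.56%. Without excess pig 9 this share rose to 16.8%, so the count of 5 came with more such values over the whole array. In deficient against excess there was 1 with the covariate, against 0, and 0 to 1 without single pigs, and in the F test 2 with weights and 2 with quantile normalization, against 1, and 0 to 3 without single pigs. The share of all probe sets in deficient against excess was 6.26% with the covariate and 14.4% without excess pig 9, against 4.08%. For the F test the share, 2.54%, was read only with all arrays as deposited. The median over the members in excess against adequate was -0.16 with the covariate, against -0.47, and -0.62 to -0.25 without single pigs. In deficient against adequate it was -0.48 to -0.23 without single pigs, against -0.37. In deficient against excess it was -0.12 with the covariate, against 0.07, and -0.10 to 0.18 without single pigs, and the members that were lower numbered 5 with the covariate and 1 with median centring, against 3, and 2 to 5 without single pigs. The estimation of the array weights stopped before it converged, so values with weights are approximate. Over all probe sets 1 passed the adjusted threshold with weights in deficient against adequate and 1 among probe sets with 1 symbol in deficient against excess, neither of them a member, against 0. The cause was not tested. Signal over background is not given with the deposited values, so no detection limit was set.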

Other observations

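Adequate pig 5, the highest pig for most of the matrix genes, also held the top summed level in some marker lists of other cells. The sums of endothelial, macrophage, lymphocyte and muscle fibre markers were highest in other pigs (excess pig 9, deficient pig 1, excess pig 11 and adequate pig 7). The 4 measured satellite cell markers, of muscle stem cells, summed to 806 in this pig, against 392 to 572 in the others. Of the 4, SDC4, which is also on the matrix receptor list, read 8.64 there and CHODL 8.03, both the highest of the 9 pigs. VCAM1 read 7.30 in deficient pig 3 and 6.65 in adequate pig 5, and CALCR 5.89 in deficient pig 2 and 5.52 in adequate pig 5. The interstitial collagens summed to 7463 in adequate pig 5, while the muscle fibre markers, at 60248, lay within the range of the other pigs. No explanation of these values was tested.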
